A study of Mus musculus with 4 samples.

Results

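Small nucleolar RNAs and the related Cajal body RNAs were followed as array features in osteoblast cultures made from newborn mouse calvaria, the flat bones of the skull. A row of the value table counted as a member when any gene symbol given for it began with Snora, Snord or Scarna, which found 127 of 41345 rows. Of these, 38 were H/ACA RNAs (Snora), 80 C/D RNAs (Snord) and 9 Cajal body RNAs (Scarna), with 108 symbols among them. All 16 rows that list Snord116l1 and Snord116l2 held the same values on every array, as did both rows of Snora19, so the 127 rows carried 111 distinct sets of values. In 83 rows the only symbols were those of small nucleolar or Cajal body RNAs, and the other 44 rows named a further gene, which in 23 of them was the gene that contains the small RNA.

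The series compared cultures of Runx3f/f/Col1a1-cre mice with wild-type cultures after 21 days in medium with ascorbate and glycerol phosphate, on 4 Mouse Gene 2.0 ST arrays, 2 per group, numbered biological replicate 1 and 2 by the labels. Col1a1-cre removes the floxed Runx3 alleles in cells that make type I collagen, so any other cell of the culture would keep the gene, and the labels do not say whether wild-type animals carried Cre or floxed alleles. The comparison asks which genes depend on Runx3, a Runt-family transcription factor, in osteoblasts.

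Small nucleolar RNAs guide the enzymes that modify ribosomal RNA. C/D RNAs pair with the site to be 2′-O-methylated by fibrillarin, H/ACA RNAs pair with the uridine to be turned into pseudouridine by dyskerin, and a few of both kinds are needed to cut the rRNA precursor. Cajal body RNAs do the same work on the small nuclear RNAs of the spliceosome. In mammals most of them have no promoter of their own and are trimmed out of introns of a host gene, often a ribosomal protein gene or a non-coding gene whose spliced product is short-lived. They have no poly(A) tail.

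Values are read as log2, which the submitters' notes do not state, so each fold assumes base 2. Replicate 2 was brighter: the median row stood at 6.08 (mutant-labelled) and 6.05 (wild type), against 5.50 and 5.45 in replicate 1, so levels are compared within a replicate number first. Arrays of the same number held exactly equal values in 37.8% of all rows in replicate 1 and 45.1% in replicate 2, and in 16.5% and 17.3% of the members. Runx3 read 7.94 and 8.06 on the arrays labelled as deleted and 7.45 and 7.87 in wild type, so it was not lower. Which exons were deleted is not stated, so this row does not check the deletion, and the groups are called mutant-labelled and wild type. The tissue tag reads myoblast, but Myod1 and Myog, which define myoblasts, stood between 5.45 and 6.72 with equal values in both groups, and the osteoblast gene Col1a1 between 13.45 and 13.57. Of the 6 myoblast markers only Des was higher in both replicates, by 0.51 and 0.25, and 0 were lower in both. Of the 7 osteoblast markers 2, Ibsp and Dmp1, were at least 1.5-fold lower on both mutant-labelled arrays, with mean differences of -1.55 and -1.46. Bglap differed by -0.54 and Sp7 by 0.19, while Col1a1, Col1a2 and Alpl lay between -0.03 and -0.01. All 6 macrophage markers were at least 1.5-fold lower on both mutant-labelled arrays; the log2 of their summed linear level was 11.00 and 11.08 there against 12.63 and 12.69, with no marker at 0. The part of these differences in the values below was not tested, and in a mixed culture fewer cells of a type and less RNA per cell cannot be told apart.

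Most of the features that differed stood higher on the mutant-labelled arrays. Of the 127 members, 63 were higher in both replicates (49.6%), where 17.2% of all rows were, and 22 were lower in both (17.3%), where 15.6% of all rows were. Among the lower ones 16 were the identical Snord116 rows; over the 111 distinct sets of values the counts were 63 higher and 7 lower. Values were exactly equal in both replicates for 11 members (8.66%), against 25.9% of all rows. The median difference, mutant-labelled minus wild type, was 0.15 log2 units over all members and 0.19 over the distinct ones, against 0.00 over all rows. It was 0.21 within replicate 1 and 0.08 within replicate 2.

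A difference of at least 1.5-fold in the same direction in both replicates was seen upward in 20 members (15.7%), against a background of 2.05% of all rows, and downward in 0 members, against 0.885%. On 18 of these 20, both mutant-labelled arrays lay above both wild-type arrays; over all members 44 did so, against 7.76% of all rows, and 1 lay wholly below, against 6.58%. Across the 111 distinct members the differences of the 2 replicates had a Pearson correlation of 0.82, given as a description of features that share arrays. Replicate 1 showed the larger difference in 15 of the 20, and 10 further members passed 1.5-fold in replicate 1 alone against 2 in replicate 2 alone.

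**Figure D1:**
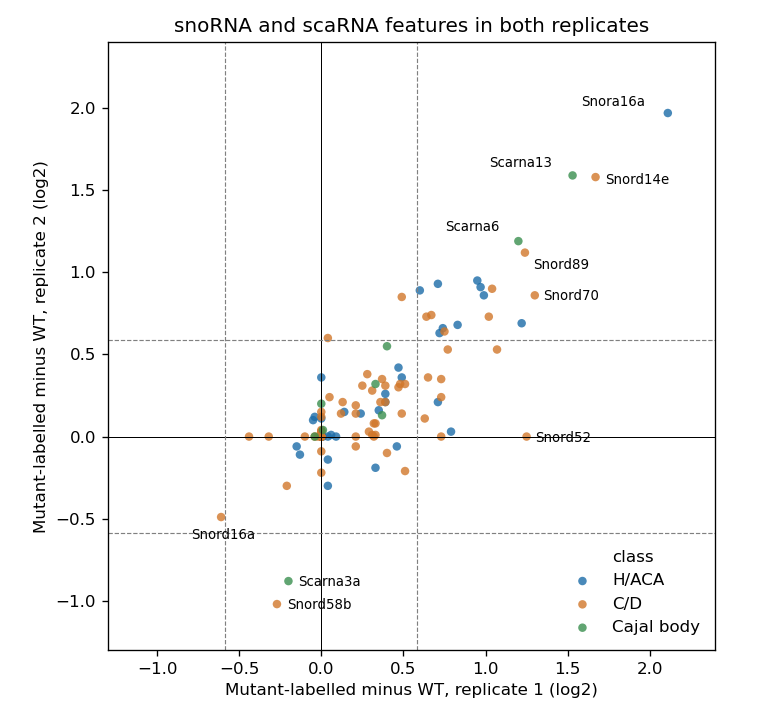
Difference between the mutant-labelled and the wild-type array in replicate 1 (horizontal, log2) and in replicate 2 (vertical, log2) for the 111 distinct features, coloured by class; dashed lines mark 1.5-fold. The 20 rows beyond 1.5-fold in both replicates all lie at the upper right, led by Snora16a, and no point lies beyond the lines at the lower left.

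In limma over all 41345 rows, with group as the only term, 0 members passed an adjusted p of 0.05, as did 0 rows in all (0%). The smallest adjusted p among members was 0.619. At unadjusted p under 0.05 there were 19 members, where 3.02% of all rows passed; 18 of them were at least 1.5-fold higher (background 1.76%) and 0 were 1.5-fold lower (background 0.866%). The count of 18 was 10 without mutant-labelled replicate 1, 6 without wild-type replicate 1, 7 without mutant-labelled replicate 2 and 13 without wild-type replicate 2. Without one array the brightness of replicate 2 no longer cancels, and the median over members was -0.028 without wild-type replicate 1 and 0.379 without wild-type replicate 2, where the median over all rows was -0.177 and 0.194. With the replicate number as a block, 47 members had an unadjusted p under 0.05 (background 10.1%), 16 of them the identical Snord116 rows, and 0 passed after adjustment. No difference below therefore passed a test over all rows, and the values are given as measured.

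H/ACA RNAs held 10 of the 20 features. Snora16a, one of the guides in the introns of Snhg12, read 10.21 and 10.01 on the mutant-labelled arrays of replicates 1 and 2 and 8.10 and 8.05 on the wild-type arrays. The groups lay far apart beside their own spread, with means of 10.11 ± 0.14 and 8.07 ± 0.04 (SD, n = 2), a 4.11-fold difference (log2 2.04, SE 0.17; limma, unadjusted p = 0.000391 and adjusted p = 0.619). Both rows listing Snora17 with its host Snhg7 were higher, at 9.71 and 9.91 against 8.72 and 9.05 for the brighter row and at 8.09 and 8.68 against 7.14 and 7.73 for the dimmer one. The brighter row was 1.90-fold and the dimmer 1.93-fold higher, and on each the lowest mutant-labelled value exceeded the highest wild-type value.

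Snora75, from an intron of the nucleolin gene Ncl, read 8.28 and 7.84 against 7.06 and 7.16, with a wider difference in replicate 1 (2.33-fold) than in replicate 2 (1.61-fold). Snora78, in the non-coding gene Snhg9, read 8.27 and 8.57 against 7.30 and 7.65, which was 1.92-fold. Snora73a, which with Snora73b forms the U17 family needed for cutting the rRNA precursor, read 9.39 and 9.60 against 8.68 on both wild-type arrays. Its partner Snora73b was at 8.18 on both arrays of replicate 1 and at 8.84 against 8.48 in replicate 2, so only Snora73a passed 1.5-fold.

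The remaining H/ACA features past 1.5-fold were Snora62 in the ribosomal protein gene Rpsa (1.69-fold), Snora24 with Snhg8 (1.68-fold), Snora31 in Tpt1 (1.62-fold) and the brighter row of Snora33 in Rps12 (1.60-fold). Snora24 ran from 6.77 to 8.84, and its groups overlapped because the arrays of replicate 2 stood above those of replicate 1 in both groups. Snora33 was the brightest member of all, at 12.78 and 12.68 against 12.06 and 12.04; its dimmer row, at 5.91 on average, differed by 1.23-fold. On the lower side in both replicates were 2 H/ACA members with small differences, Snora81 in Eif4a2 at -0.13 and -0.11 and Snora47 in Zbed3 at -0.15 and -0.06 log2 units. Over all 38 H/ACA rows, 20 were higher in both replicates and the median difference was 0.19.

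C/D RNAs held 8 of the 20. Snord14e, a copy of U14 in an intron of the heat shock gene Hspa8, which its row also lists, read 10.95 and 10.88 against 9.28 and 9.30, 3.08-fold higher (log2 1.62, SE 0.16; limma, unadjusted p = 0.000668 and adjusted p = 0.619). U14 is one of the few C/D RNAs that also help to cut the rRNA precursor. Its SD was 0.05 on the mutant-labelled and 0.01 on the wild-type arrays, so the difference was many times the spread within either pair. Snord14a, the copy in Rps13, held equal values in both replicates (6.83 and 7.01).

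Snord89 read 11.19 and 10.52 against 9.95 and 9.40, or 2.26-fold, and Snord49b read 11.98 and 11.52 against 10.94 and 10.61, or 1.96-fold. In both, replicate 1 stood above replicate 2 in each group, against the offset of the arrays, and the groups stayed apart. Snord110, in Nop56, read 6.90 and 6.88 against 5.88 and 6.15, which was 1.83-fold. Snord12, listed with its host Zfas1, was 1.63-fold higher. Snord13, which is U13 and is made from its own promoter, read 11.48 and 11.34 against 10.73 and 10.70, 1.62-fold higher. Snord70 in Nop58 was 2.11-fold higher on average, from 4.55 and 5.84 against 3.25 and 4.97; its wild-type value in replicate 1 lay below 4.71, the floor set from rows of olfactory and vomeronasal receptors, and the groups overlapped.

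Snord33 is shown with part of its own sequence because its row lists, beside its host Rpl13a, a microRNA, miR-5121, whose mature RNA lies at chr7:45126925-45126945 (GRCm38.p6, minus strand, from RefSeq) and covers 21 bases at one end of the annotated Snord33 (chr7:45126864-45126945). Its capitals mark UGAUGA, the core letters of box C, by which C/D RNAs are recognised; they start at base 7 of Snord33 if it runs on the strand of the microRNA. Searched on the given strand only, UGAUGA occurs in 0.69% of 1738 mature mouse microRNAs.
miR-5121 within Snord33: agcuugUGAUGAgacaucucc
Snord33 read 9.97 and 10.13 on the mutant-labelled arrays and 9.33 and 9.40 in wild type, 1.61-fold higher with no overlap.

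The lower side of the C/D class was thin. Snord16a, in the ribosomal protein gene Rpl4, was the only member whose mutant-labelled arrays both lay below the wild-type arrays, at 7.97 and 8.17 against 8.58 and 8.66 (1.46-fold lower; limma, unadjusted p = 0.0374 and adjusted p = 1). Snord58b in Rpl17 differed by -0.27 and -1.02 log2 units, from 4.12 and 4.96 against 4.39 and 5.98, close to the floor and with overlapping groups. The Snord116 value, shared by its 16 rows, was 7.77 and 8.13 against 7.98 and 8.43; this family lies in the imprinted Snhg14 region and is known for expression in brain. Without the Snord116 rows, 37 of 64 C/D rows were higher in both replicates and 3 lower, with a median difference of 0.19.

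Cajal body RNAs were few but included the third and the fourth largest differences. Scarna13, in the non-coding gene Snhg10, read 9.31 and 9.53 against 7.78 and 7.94, which was 2.95-fold higher. Scarna6, in Atg16l1, read 8.54 and 8.91 against 7.34 and 7.72, 2.29-fold higher. In both RNAs the groups did not overlap. Scarna17 was higher in both replicates on each of its rows, by 0.47 and 0.32 log2 units on average. Scarna2 held equal values in replicate 1 (9.04), and Scarna10 was nearly level, with 0.01 and 0.04.

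Rows of 3 Cajal body RNAs also list a microRNA whose hairpin lies inside or up to 1 base past the annotated RNA, and these hairpins are printed because they show which letters the features share. They are from RefSeq on GRCm38.p6, and capitals mark the last ACA, the letters of the box found near the 3′ end of H/ACA RNAs. The Scarna13 hairpin is at chr12:105031077-105031141 (minus strand), that of Scarna3a at chr1:159340358-159340423 (plus strand) and that of Scarna3b at chr12:80391613-80391677 (minus strand).
Mir3069 within Scarna13: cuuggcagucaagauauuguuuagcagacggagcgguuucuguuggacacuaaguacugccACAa
Mir1843b within Scarna3a: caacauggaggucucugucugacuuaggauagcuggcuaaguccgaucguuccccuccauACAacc
Mir1843a within Scarna3b: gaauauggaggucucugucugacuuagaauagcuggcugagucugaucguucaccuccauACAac
If each RNA runs on the strand of its hairpin, the ACA is followed by 3 bases to the annotated end in Scarna13, 4 in Scarna3a and 1 in Scarna3b. ACA occurs in the last 12 bases of 16.4% of 1005 mouse hairpins on the given strand. The Scarna3a and Scarna3b hairpins are identical in 59 of 66 aligned positions (89.4%); the rest of these RNAs and the array's probes were not compared. Scarna3b was at 7.66 and 8.10 against 7.28 and 7.96, while Scarna3a stood at 6.20 and 7.10 in wild type and differed from it by -0.20 and -0.88. Scarna3a was the only Cajal body RNA lower in both replicates, and neither row's groups were clear of overlap.

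Host genes were mostly level where their small RNAs were higher. All 108 member symbols were found in the RefSeq gene table (GRCm38.p6); 107 of the 111 distinct members lay inside a protein-coding or non-coding gene, and 83 of them had a host with an array row of its own, 62 hosts in all. The median difference over these hosts was 0.00, against 0.18 over their 83 small RNAs. No floor was set for hosts, and some read below 4.71, such as Htr2c on all arrays and Snhg9 in replicate 1 (4.08 and 4.06). The ribosomal protein gene Rpl17 also did so in replicate 1 (4.42 on both arrays). Whether such rows measure the main host transcript was not checked. Some hosts held exactly equal values in both replicates, as did 25.9% of all rows. Others held equal values in 1 replicate, such as Atg16l1, Snhg9, Snhg10 and Snhg12 in replicate 2 and Tpt1 and Rpsa in replicate 1. Where a host is equal, its small RNA exceeds it whenever its own difference is above 0. The host median of 0.00 includes such values. Of the 62 hosts, 14 were higher and 16 lower in both replicates, and 1 was at least 1.5-fold higher in both, against the background of 2.05%.

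Of the 20 features past 1.5-fold, 16 had such a host, whose own differences ran from -0.13 to 0.66. That of Zfas1 alone passed 1.5-fold, at 10.63 and 10.72 against 9.93 and 10.11, close to the difference of its Snord12. Hspa8 held equal values within each replicate (12.49 and 12.81) while its Snord14e was 3.08-fold higher. Nop58 and Snhg7 also held equal values in both replicates, and Ncl differed by -0.23 and -0.03 while Snora75 was higher. Snhg10, host of Scarna13, read 6.91 and 7.28 against 6.83 and 7.28. Over all 83 pairs the small RNA exceeded its host in both replicates in 50 and was below it in 13. The same was seen in 15 of the 16 pairs. These 16 were picked for a high difference, so nearly any row beside them would be exceeded, and that count tests nothing about hosts. Rows of 4 of the 16, Snord14e, Snord12 and both of Snora17, list the host as well. In all 12 others the small RNA exceeded its host in both replicates, with the same limit. The correlation of member and host differences over the 83 pairs was 0.23 (Pearson), where pairs share hosts and arrays.

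**Figure D2:**
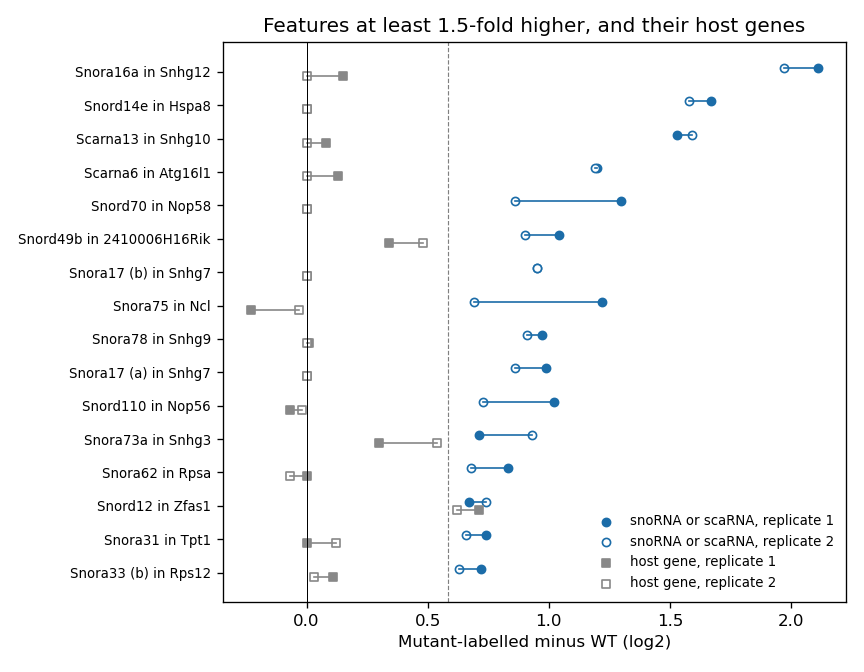
Differences within replicate 1 (filled) and replicate 2 (open) in log2 units for the 16 features at least 1.5-fold higher in both replicates whose host has a row of its own (circles), each above its host gene (squares); (a) and (b) mark the first and second row of one RNA. Zfas1 is the only host past the dashed 1.5-fold line; the other squares lie between -0.23 and 0.54.

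RNAs of the same host did not all have the same difference. Among 18 hosts with 2 or more different RNAs, 8 had some but not all features past 1.5-fold, 10 had none and 0 had all. The highest and lowest mean differences within a host lay 0.39 log2 units apart in the median host, and at least 1.5-fold apart in 6. Snhg12 showed the widest gap. Beside Snora16a (log2 2.04), its Snord99 read 9.46 and 9.80 against 8.73 and 9.56, its Snora44 read 9.55 and 9.49 against 9.59 and 9.39, and its Snora61 was at 7.05 and 7.36 against 7.04 and 7.36. Snhg12 itself read 6.84 and 7.27 against 6.68 and 7.27. In Ncl, Snora75 differed by 0.95 and Snord82, one of the brightest members, by -0.02, from 11.49 and 11.97 against 11.53 and 11.97. In Snhg7, Snora43 was at 0.06 beside 0.93 and 0.95 for Snora17.

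In some families all features were higher. All 4 features in Rpl13a, whose C/D RNAs are known for a part in lipid stress, were higher in both replicates: Snord33 by 0.68, Snord35a by 0.65, Snord34 by 0.40 and Snord32a by 0.36 on average. The 3 features of 2410006H16Rik were also higher in both replicates, Snord49b by 0.97, Snord65 by 0.54 and Snord49a by 0.28, beside a host at 0.41. All 3 features of Snhg16 other than Snord1a had equal values in both replicates and lay below the floor. Differences between members of a host were not tested.

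**Figure D3:**
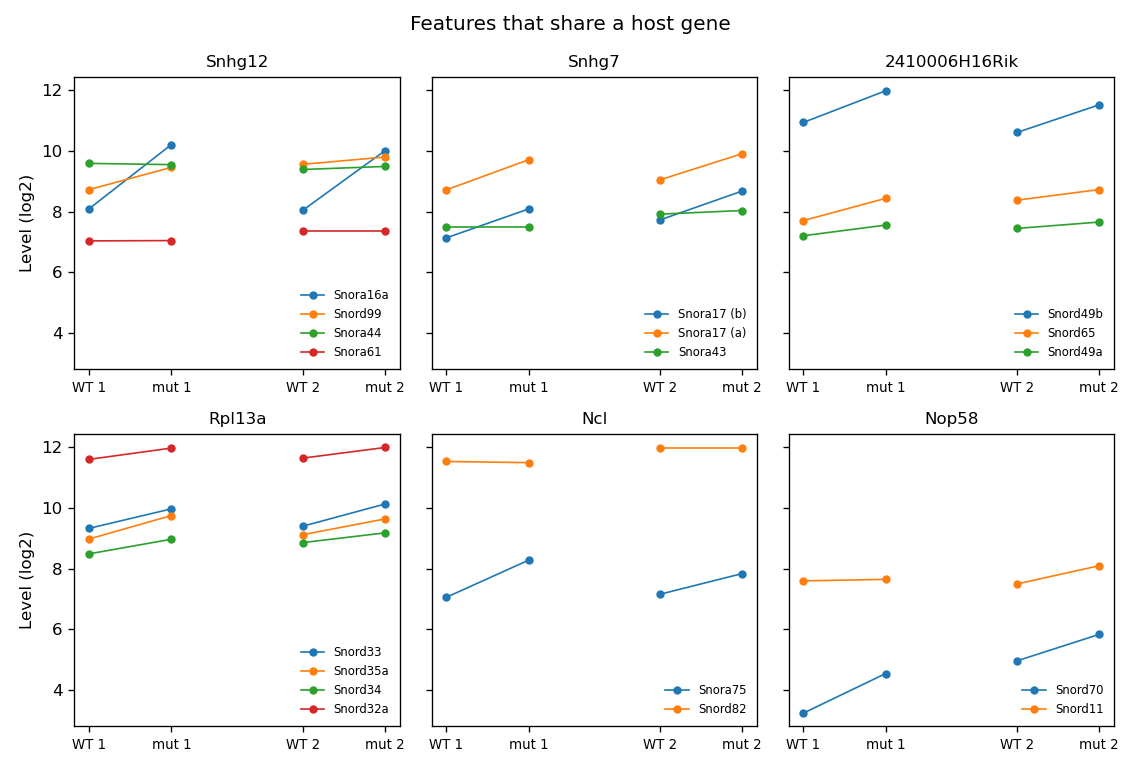
Level on each array (log2) of the distinct features in 6 host genes, with a line from the wild-type (WT) to the mutant-labelled (mut) array of the same replicate number; (a) and (b) mark the first and second row of one RNA. In Snhg12 the line of Snora16a climbs in both replicates while those of Snora44 and Snora61 stay level, and in Rpl13a all 4 lines climb; levels of different features are not comparable with each other.

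The start regions of 4 hosts are shown because snoRNA host genes are known for a run of pyrimidines at the first transcribed base, the terminal oligopyrimidine tract that ties translation to growth signals. Each is 30 bases before and 30 from the start, from RefSeq promoter windows on GRCm38.p6: Snhg12 at chr4:132308648-132308707 (plus strand), Snhg7 at chr2:26640215-26640274 (minus), 2410006H16Rik at chr11:62602847-62602906 (plus) and Snhg10 at chr12:105032250-105032309 (minus). Capitals mark an unbroken run of at least 5 C or T that includes the first transcribed base.
Snhg12: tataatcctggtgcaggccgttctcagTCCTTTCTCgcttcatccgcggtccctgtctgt
Snhg7: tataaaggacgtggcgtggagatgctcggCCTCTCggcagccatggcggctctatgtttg
2410006H16Rik: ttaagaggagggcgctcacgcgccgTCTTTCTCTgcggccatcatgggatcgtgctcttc
Snhg10: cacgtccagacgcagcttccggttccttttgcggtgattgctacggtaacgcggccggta
The run was found on the transcribed strand in the first 3 and not in Snhg10, whose Scarna13 was 2.95-fold higher. In Snhg10 a run of C and T ends on the last base before the annotated start, and in the first 3 the run begins before the start. The call therefore depends on the exact start base, and whether a tract is present in the RNA was not tested. Of 63 host genes with a window, 15 (23.8%) held the run in at least 1 window, and 10.1% of all 32851 windows did. The first share counts genes, which can have several windows, and the second counts single windows, so they are not comparable. The 4 hosts shown were picked by hand.

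Differences were larger among features with a high mean level over the 4 arrays. A floor of 4.71 was set at the 90th percentile of 1405 olfactory and vomeronasal receptor rows, and all but 11 of the 127 members exceeded it on at least 2 arrays, a filter that a feature high in one group alone can pass. Of the 10 distinct features below it, 7 had equal values in both replicates and 0 were higher in both. Distinct features above it were divided at 7.48 and 8.41 in the mean level over all 4 arrays. This mean includes the mutant-labelled arrays, so a higher value there also lifts a feature toward the upper range. By wild-type mean Snora16a (8.07), Scarna13 (7.86) and Snora31 (8.19) would leave the upper range. The other 1.5-fold features there, such as Snord14e (9.29), would stay. From the middle range Snora75 (7.11), Snora62 (7.29), Snora24 (7.36) and the dimmer Snora17 row (7.44) would fall below 7.48. Snora78 (7.48) lies at that bound, and Scarna6 (7.53) would stay. The counts by range below therefore depend on which arrays set the level. A division by wild-type level alone was not made. Past 1.5-fold upward were 3 of 39 in the lower range, 6 of 23 in the middle and 11 of 39 in the upper range, with median differences of 0.08, 0.25 and 0.37. All rows in the same ranges were 1.5-fold higher in 2.81%, 3.85% and 1.92%, with medians of 0.00. In the upper range 32 of 39 features were higher in both replicates, against 25.3% of all rows at that level, and the groups lay apart upward in 27, against 13.8% of all rows there.

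The classes differed little in median (0.19 for H/ACA, 0.19 for C/D without Snord116 and 0.25 for Cajal body rows), and the difference between classes was not tested. In the lower range 0 of 12 H/ACA and 3 of 24 C/D features passed 1.5-fold upward, in the middle range 5 of 10 and 0 of 11, and in the upper range 5 of 13 and 5 of 22. Of the Cajal body RNAs, 0 of 3, 1 of 2 and 1 of 4 passed. These ranges were set by the mean that includes the mutant-labelled arrays. All 5 H/ACA features that passed in the middle range had a wild-type mean at or below its lower bound. The contrast between the lower and middle ranges in H/ACA RNAs therefore cannot be separated from this sorting. No conclusion on class and level is drawn from it.

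**Figure D4:**
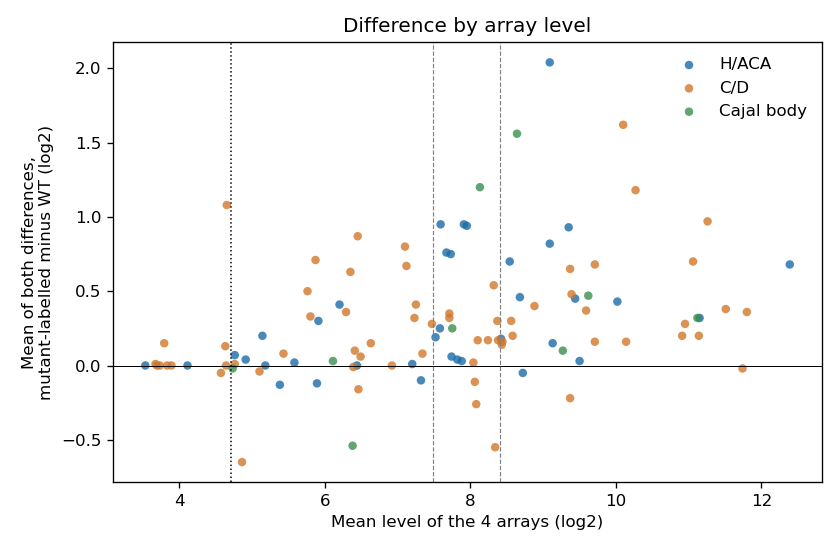
Mean of the differences in both replicates (vertical, log2) against mean level over the 4 arrays (horizontal, log2) for the 111 distinct features, coloured by class. The dotted line is the floor of 4.71, which Snord70 passed on 2 arrays though its mean lies below it, and dashed lines at 7.48 and 8.41 bound the level ranges; to the right of 8.41 the median difference is 0.37 and 32 of 39 features are higher in both replicates.

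Genes for the proteins that bind these RNAs were level or slightly lower. Of the H/ACA list, the pseudouridine synthase Dkc1 differed by -0.21 (8.30 and 8.60 against 8.55 and 8.77), Nop10 by -0.18, Nhp2 by -0.12 and Gar1 by -0.15. In this list 5 of the 6 genes measured were lower and 0 higher in both replicates, against 15.6% of all rows lower in both. The median level of the list was 8.29. Of all rows between 7.48 and 8.41, 22.3% were lower in both, and of those above 8.41, 31.2%. Of the C/D list 5 of 8 measured genes were lower and 0 higher in both, with Nop56 at -0.04, Nop58 at 0.00 and the assembly factor Nufip1 at -0.15. Among 15 shared assembly, cap and Cajal body factors 7 were lower and 1 higher in both, led by the helicase Ruvbl1 at -0.24, while coilin (Coil) held equal values. In these 3 lists 0 genes had an unadjusted limma p under 0.05 (background 3.02%), and 0 differed by 1.5-fold.

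Of 15 non-coding host genes measured, 4 were higher in both replicates and 0 lower: Zfas1 by 0.66, Snhg5 by 0.51, Snhg3 by 0.42 and Snhg1 by 0.33. That is 26.7% higher and 0% lower, against 17.2% and 15.6% of all rows. The median level of the list was 7.87, and its share higher was near that of all rows between 7.48 and 8.41 (24.6%). Of those rows 22.3% were lower in both, and the list was not tested. Outside this list the non-coding hosts 2410006H16Rik (0.41) and 1110038B12Rik (0.34) were also higher in both. Zfas1 alone passed 0.05 before adjustment (limma, unadjusted p = 0.0205 and adjusted p = 1). Another 5, among them Snhg7 and Snhg15, held equal values in both replicates.

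Some other small RNAs without a poly(A) tail were also higher. Rny1, the Y1 RNA bound by the Ro protein, read 7.67 and 8.48 against 5.38 and 5.72, 5.74-fold higher with no overlap. Vaultrc5, a vault RNA, was 2.31-fold and Rpph1, the RNA of RNase P, 1.68-fold higher, while Terc differed by 0.20, Rny3 by 0.14 and the transcriptional regulator Rn7sk by 0.00. Of these 6 genes, 4 were higher in both replicates, against 17.2% of all rows, and 3 by at least 1.5-fold, against 2.05%. U3, a C/D RNA by structure, is named Rnu3 and so was no member: the Rnu3b rows, all 4 with the same values, read 11.12 and 11.18 against 9.79 and 10.11, and Rnu3a read 6.67 and 6.73 against 5.73 and 5.93. The spliceosomal Rnu12 and the histone-processing Rnu7 held equal values, and Rnu11 was at 0.59 and 0.01. Of 642 microRNA rows 2.96% were at least 1.5-fold higher in both replicates, against 15.7% of members and 2.05% of all rows.

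**Figure D5:**
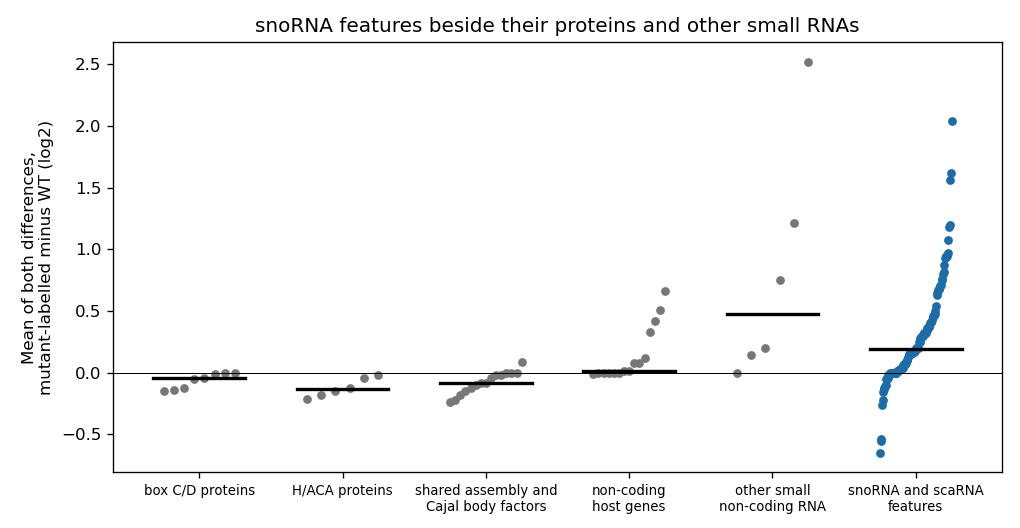
Mean of the differences in both replicates (log2) for each gene of 5 lists and for the 111 distinct features, ordered by value within a column, with a bar at the median. Protein genes of the C/D, H/ACA and shared lists lie between -0.24 and 0.09, whereas the features reach 2.04 and Rny1 2.52.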

How the data were processed

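The authors deposited 1 value per row and array, taken as log2; Partek and RMA appear in the submitters' processing notes with no version, role or order. The log base, any centring and how arrays were combined have no statement in those notes or in the labels. Rows were named by the platform annotation (23521 rows with 1 symbol, 1814 with several, 16010 with none listed). Members and gene lists were chosen with earlier results of these data known. Differences were taken within each replicate number and described without a test. Separately, all 41345 rows were fitted with group as the only term by limma 3.58.1 under R 4.3.3 (eBayes after lmFit, two-sided p, Benjamini-Hochberg adjustment). A run on simulated data with 200 changed rows required only that the mean estimated difference lay near the one put in. That run did not check p-values, and its arrays had no common offset between replicates, unlike these arrays. With 2 arrays per group the number of arrays limits precision; the labels do not say that replicates came from separate litters, so p-values measure only the spread between these arrays. A host was the smallest protein-coding or non-coding RefSeq gene that contains the small RNA, without regard to strand, which the gene table used here does not give. Only rows with the host as their single symbol were used for its value, so rows listing host and small RNA together were left out. Where a host had several such rows the brightest stood for it. Named features were those 1.5-fold apart in both replicates (up to 20), the 3 largest differences per class and direction above the floor, the 3 brightest per class and up to 3 genes per list; others were chosen after their values were seen, to complete host families. Promoter windows and microRNA sequences are RefSeq's, and other sequences of the members are not analysed here.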

Additional observations from a re-analysis of the deposited data

How the results depend on the processing

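The 20 features at least 1.5-fold higher in both replicates became 13 among features listing no other gene and 5 at a 2-fold threshold, and ran from 19 to 29 with 1 row per symbol or per distinct set of values, the floor, median centring, quantile normalization again and a threshold below 1.5-fold. The count lower by 1.5-fold was 0, and 1 at that lower threshold. Counts of lower features moved most: 22 lower in both replicates became 4 with features listing no other gene, 7 with 1 row per symbol, 6 without Snord116 rows and 7 with 1 row per distinct set of values, an alternative added after the data were seen; they became 45 after median centring and 40 after quantile normalization again, since both turn equal values into small differences. In limma, the 18 features with unadjusted p under 0.05 and 1.5-fold higher ran from 6 to 13 with 1 array left out and from 14 to 20 in the other settings, and those 1.5-fold lower from 0 to 2. The median over members was 0.15 and ran from -0.028 (without wild-type replicate 1) to 0.379 (without wild-type replicate 2); the median over all rows was then -0.177 and 0.194. Deviations of same-numbered arrays from their group means correlated at 0.75 over all rows, and the labels do not state a pairing. Rows with exactly equal values in both replicates (25.9% of all) have identical deviations, which adds to this correlation. It therefore cannot check whether same-numbered cultures were paired. With the replicate block 17 features passed unadjusted p with 1.5-fold, and 0 members passed after adjustment in any setting run, with the smallest adjusted p at 0.619 in the fit as designed, 0.225 with the block and 0.0683 with an intensity trend. Signal over background limits features near the floor, where 7 of 10 distinct ones below it held equal values.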
